A study of Homo sapiens with 4 samples.

Results

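The miR-26 family comprises hsa-miR-26a-5p and hsa-miR-26b-5p, which carry the same seed. Both were taken by name from the table of mature miRNAs, where they were 2 of 843 entries, 570 of them known and 273 predicted. The table holds small RNA sequencing of what an RNA pull-down recovered. The cells were HGC27 and AGS, which are established cell lines of human gastric cancer. In both lines, the 3′-UTR of FN1, the fibronectin gene, had been stably overexpressed by lentivirus under puromycin selection, and lysates were passed over beads carrying a positive or a negative RNA probe to that region. The 4 groups were HGC27 with the negative probe, HGC27 with the positive probe, AGS with the negative probe and AGS with the positive probe, with 1 library each, and all of them carried the overexpression. The methods describe the biotinylated RNA on the beads as antisense, and the labels allow either the sense or the antisense RNA. Neither says which of these was the positive and which the negative probe. No total RNA of the lysates is used here, so a level is the amount recovered on the beads and cannot be told apart from the amount in the cell.

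miRNAs guide Argonaute proteins to transcripts that pair with nucleotides 2 to 8 of the miRNA, the seed. The genes of the miR-26 family lie within introns of the CTDSP genes, which encode small phosphatases acting on RNA polymerase II and on the retinoblastoma protein, and the miRNAs and their hosts are known to restrain the entry into the cell cycle together. The family is widely expressed, is repressed by the oncoprotein MYC in several tumours, and targets EZH2, the histone methyltransferase of the Polycomb complex.

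The mature sequences are shown because the whole family turns on one seed and on few differences downstream of it. They are printed 5′ to 3′ with the seed in capitals.
hsa-miR-26a-5p: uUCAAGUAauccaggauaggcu
hsa-miR-26b-5p: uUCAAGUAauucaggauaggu

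miR-26a-5p has 22 nucleotides and miR-26b-5p has 21. Aligned from the 5′ end, they shared 19 of 21 bases (90.5%). The differences were C11U and C21U, with the base of miR-26a-5p first, the position counted from 1 at the 5′ end, and the base of miR-26b-5p last. The GC content was 40.9% for miR-26a-5p and 33.3% for miR-26b-5p, while the 296 known miRNAs that reached 10 counts in an HGC27 library had a median of 47.8%. Both sequences matched their RefSeq entries letter by letter. miR-26a-5p arises from 2 genes. In GRCh38 its sequence lies on chromosome 3 from 37969413 to 37969434 on the plus strand (MIR26A1), in an intron of CTDSPL, and on chromosome 12 from 57824658 to 57824679 on the minus strand (MIR26A2), in intron 5 of CTDSP2. miR-26b-5p lies on chromosome 2 from 218402657 to 218402677 on the plus strand (MIR26B), in intron 4 of CTDSP1. All 3 miRNA genes lie on the strand of their host. Since both copies of miR-26a-5p give the same mature sequence, its counts cannot be divided between CTDSPL and CTDSP2.

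No other entry of the table carried the family seed at nucleotides 2 to 8. The table listed 0 entries for the 3p arms of the mir-26 precursors, and 0 predicted entries contained a member or lay within it. The counts of the family therefore rest on its 2 named members. How tags that match both members were assigned is not given in the sources used here.

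The tables held between 1296853 and 2955078 miRNA counts per library over 342 to 609 listed miRNAs. In AGS, miR-372-3p, a stem cell miRNA, took 80.8% of the counts with the negative probe and 37.5% with the positive probe, against 0.178% and 0.300% in HGC27, so comparisons that involve AGS libraries are given under several scalings. As a check of the lines, epithelial marker miRNAs (9 of 10 in the table) had a summed score of 499 to 923 in HGC27 and of 1049 to 10445 in AGS. Mesenchymal markers (5 of 5 in the table) had 3521 to 3616 in HGC27 but only 11 to 39 in AGS. Endothelial markers (2 of 2) had 280 to 485 in HGC27 and 3 to 5 in AGS. Neural markers (1 of 2) had 726 to 1690 and 1 to 4, and the hepatocyte marker had 11 to 13 and 1 to 11. Of the blood cell markers, 0 of 5 were in the table. These are deposited scores, on which most miRNAs were higher in HGC27.

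miR-26a-5p was the more abundant member in all 4 libraries. It had 10663 counts in HGC27 with the negative probe, 6551 in HGC27 with the positive probe, 6892 in AGS with the negative probe and 877 in AGS with the positive probe. Its deposited score, the tags per 1000000 as the authors scaled them, was 3668, 2371, 960 and 205 in the same order. The exact 95% counting intervals, 3599 to 3739, 2314 to 2429, 937 to 983 and 192 to 219, did not overlap, so on this scale the order of the levels exceeded counting error. These intervals cover counting error only and say nothing of the spread between replicates, of which there were none. How many other miRNAs had intervals without overlap was not counted, so the separation is not read as particular to the family. miR-26a-5p ranked 17th of 574 listed miRNAs by count in HGC27 with the negative probe and 24th of 609 with the positive probe. In AGS it ranked 15th of 342 and 33rd of 361.

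miR-26b-5p was far less abundant, with its levels in the same order. Its counts were 729, 308, 173 and 40, and its deposited scores 251, 111, 24 and 9. The counting intervals were 233 to 270, 99.4 to 125, 20.6 to 28.0 and 6.69 to 12.7, again without overlap. Here too, other miRNAs were not counted for this, and it is not read as particular to the family. On this scale, 85.8% of 330 miRNAs with the negative and 74.7% of 332 with the positive probe had a ratio of HGC27 over AGS of at least 2. The order of the lines held on the deposited scale and with table totals only. With TMM, DESeq2 size factors or totals without miR-372-3p, miR-26a-5p was higher in AGS than in HGC27 with the negative probe, and miR-26b-5p was higher in AGS with the negative than in HGC27 with the positive probe. It ranked 71st in HGC27 with the negative probe and 77th with the positive probe, and 72nd and 113th in AGS. Both members together made up 0.784% of the miRNA counts in HGC27 with the negative probe (95% Wilson CI 0.770 to 0.799) and 0.529% with the positive probe (0.517 to 0.542). In AGS they made up 0.239% (0.234 to 0.245) and 0.0600% (0.0563 to 0.0640).

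**Figure D1:**
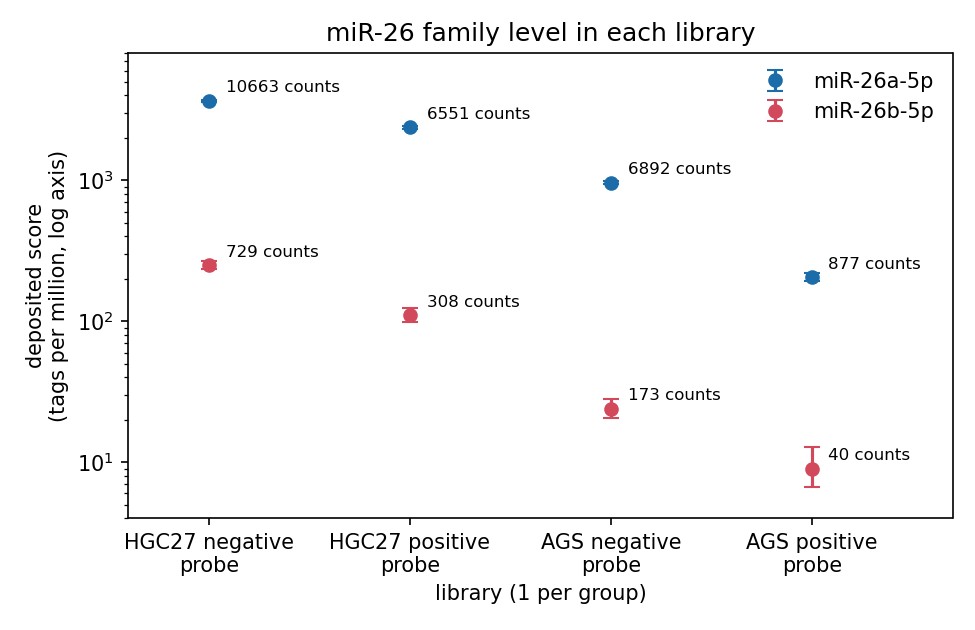
Deposited score (tags per 1000000, log axis) of miR-26a-5p and miR-26b-5p in each of the 4 libraries, with the raw count beside each point and exact 95% counting intervals as bars. Both members are highest in HGC27 with the negative probe (3668 and 251) and lowest in AGS with the positive probe (205 and 9).

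Next, the probes were compared within each line, which asks whether the family was recovered at a higher level by the positive probe. Neither member was. In HGC27, miR-26a-5p had a ratio of 0.646 (score + 1 in the positive over score + 1 in the negative probe library; exact 95% CI of the fold 0.627 to 0.667), and miR-26b-5p had a ratio of 0.444 (0.388 to 0.508). In AGS, the ratio was 0.214 for miR-26a-5p (0.199 to 0.229) and 0.400 for miR-26b-5p (0.268 to 0.551). Thus the family was 1.58-fold lower with the positive probe in HGC27 (1.53 to 1.63) and 4.58-fold lower in AGS (4.28 to 4.92). With 1 library per group, none of these differences could be set against replicates.

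A ratio of at most 0.5 was taken as depleted. In HGC27, 1 of the 2 members, miR-26b-5p, was depleted, while 33.3% of the 366 miRNAs that reached 10 counts in a library of that line were. In AGS, both members were depleted, against 31.3% of 230 miRNAs. Depletion was thus common. On the log2 scale, miR-26a-5p was at -0.63 in HGC27, above 150 of the 366 miRNAs, and miR-26b-5p was at -1.17, above 97 of them. In AGS, miR-26a-5p was at -2.22 with 34 of 230 miRNAs below it, and miR-26b-5p was at -1.32 with 55 below it. The family therefore lay below the median of these miRNAs (-0.12 in HGC27 and 0.42 in AGS), but not at the end of the distribution.

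**Figure D2:**
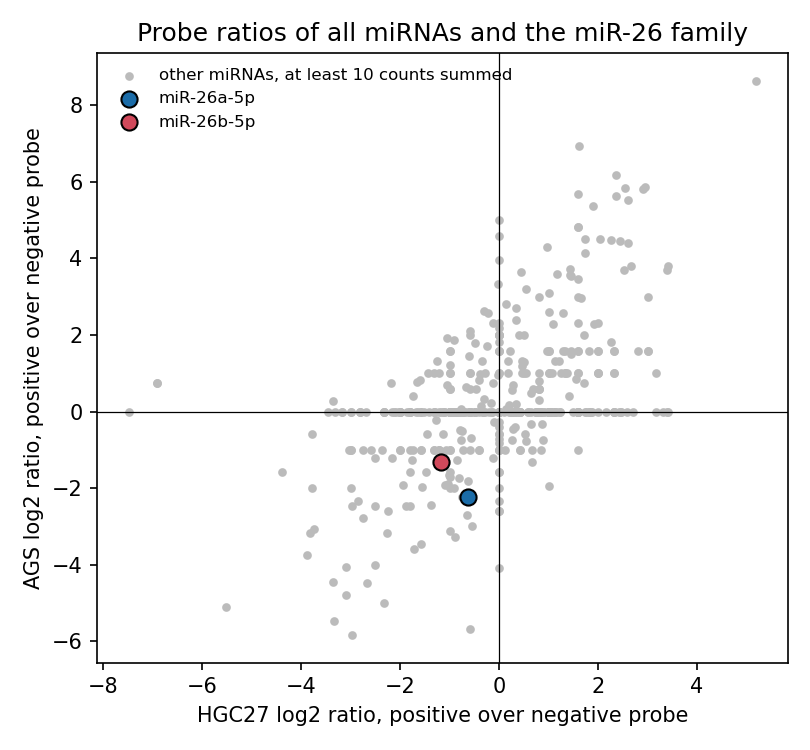
Log2 ratio of the positive over the negative probe (deposited score + 1) in HGC27 (horizontal) and AGS (vertical) for the 453 miRNAs that reached 10 counts when summed over all libraries. miR-26a-5p (-0.63 and -2.22) and miR-26b-5p (-1.17 and -1.32) are marked, and both lie below 0 on both axes among many other miRNAs.

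The size of the ratio depended on the scaling of the libraries, whereas its direction did not. Under 4 other scalings the log2 ratio of miR-26a-5p ran up to -0.44 in HGC27 and from -3.73 to -2.02 in AGS, and that of miR-26b-5p ran up to -0.98 in HGC27 and from -2.84 to -1.13 in AGS. With DESeq2 size factors, miR-26b-5p in HGC27 was no longer past the ratio of 0.5, and with a pseudocount of 10 in place of 1 the same held for miR-26b-5p in AGS (log2 ratio -0.84). The scaling moved the median of all miRNAs in AGS between -0.95 and 0.69. Measured from that median, miR-26a-5p was at -2.78 to -2.64 and miR-26b-5p at -1.89 to -1.74 in AGS. In HGC27, measured from its own median, they were at -0.53 to -0.51 and -1.06 to -1.05. A scaling shifts a miRNA and the median alike, so these narrow ranges reflect only the pseudocount and rounding.

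The probe was also tested over all 4 libraries with the line as covariate, where the lines stand in for replicates. The log2 fold change of the positive against the negative probe was -1.83 ± 1.44 (SE) for miR-26a-5p (edgeR quasi-likelihood test, adjusted p = 0.455) and -1.66 ± 1.12 for miR-26b-5p (adjusted p = 0.386). Neither of the 2 members was called, against 7.01% of the 271 miRNAs tested. Over the other settings tried, the adjusted p ran from 0.377 to 0.895 for miR-26a-5p and from 0.362 to 0.895 for miR-26b-5p. All 4 single ratios were lower with the positive probe, and the misses do not show that the probes recovered the family alike.

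The composition of the family was then examined, since the ratio of its members within a library does not depend on how libraries are scaled. miR-26b-5p made up 729 of 11392 family counts in HGC27 with the negative probe, or 6.40% (exact 95% CI 5.96 to 6.86), and 308 of 6859 with the positive probe, or 4.49% (4.01 to 5.01). In AGS it made up 173 of 7065 counts with the negative probe, or 2.45% (2.10 to 2.84), and 40 of 917 with the positive probe, or 4.36% (3.13 to 5.89). Put as counts of miR-26a-5p per count of miR-26b-5p, the libraries had 14.6, 21.3, 39.8 and 21.9 in this order. The share of miR-26b-5p was thus lower with the positive probe in HGC27 and higher with it in AGS.

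The odds of miR-26a-5p against miR-26b-5p were 1.45 times as high with the positive as with the negative probe in HGC27 (95% CI 1.27 to 1.67, Fisher's exact test, two-sided, adjusted p = 9.65e-08 over 4 comparisons). In AGS they were 0.550 times as high (0.385 to 0.803, Fisher's exact test, adjusted p = 0.00196). Hence miR-26b-5p had the lower probe ratio of the members in HGC27 and the higher one in AGS. Between the lines, the odds with the negative probe were 0.367 times as high in HGC27 as in AGS (0.308 to 0.435, Fisher's exact test, adjusted p = 4.56e-36). With the positive probe, the ratio of the odds was 0.970 (0.675 to 1.36, Fisher's exact test, adjusted p = 0.932), a difference that was not detectable with 40 counts of miR-26b-5p in AGS. These tests compare the reads of single libraries and not the conditions, because the spread of the composition between replicate libraries is unknown. PCR copies are not independent molecules, so the intervals may be too narrow.

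**Figure D3:**
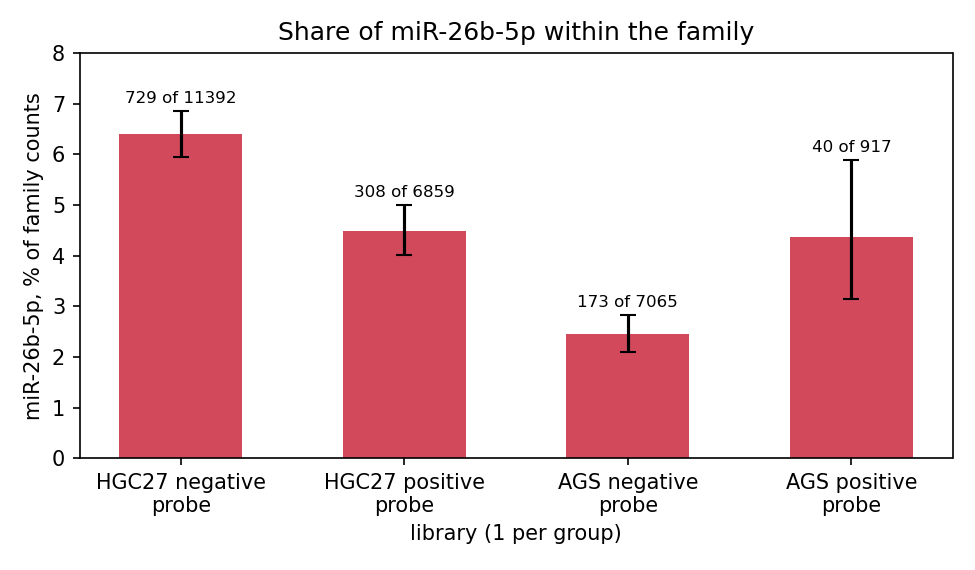
Share of miR-26b-5p in the summed counts of miR-26a-5p and miR-26b-5p (percent, vertical axis from 0) in each library, with exact 95% binomial intervals as bars and the counts above them. The share is 6.40% and 4.49% in HGC27 and 2.45% and 4.36% in AGS with the negative and positive probe.

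To compare the lines, HGC27 was set against AGS for each probe. On the deposited scale both members were higher in HGC27. With the negative probe the ratio was 3.82 for miR-26a-5p (95% CI 3.71 to 3.94) and 10.1 for miR-26b-5p (8.81 to 12.4). With the positive probe it was 11.5 for miR-26a-5p (10.8 to 12.4) and 11.2 for miR-26b-5p (8.55 to 17.0). Both members were at a ratio of at least 2 with each probe, but so were 85.8% of 330 miRNAs with the negative and 74.7% of 332 with the positive probe. A ratio on this scale therefore did not set the family apart from most miRNAs.

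The difference between the lines rested on the scaling. With the negative probe, the log2 ratio of HGC27 over AGS for miR-26a-5p was 1.93 on the deposited scale and 1.65 with table totals, but -1.10 with TMM (trimmed mean of M values), -1.17 with DESeq2 size factors and -0.73 with table totals taken without miR-372-3p. For miR-26b-5p it was 3.33 and 3.08, and then 0.34, 0.28 and 0.72. The median of all miRNAs moved with it, from 0.66 to 3.10. Measured from that median, miR-26a-5p lay at -1.83 to -0.87, whereas miR-26b-5p lay between -0.39 and 0.53. A scaling shifts a miRNA and the median alike, so these distances differ only through the pseudocount and rounding. Their agreement across the 5 scalings is not a separate check. With the positive probe, both members were higher in HGC27 under all 5 scalings, with log2 ratios of 0.97 to 3.53 for miR-26a-5p and of 1.00 to 3.49 for miR-26b-5p. Measured from the median, these were 0.14 to 0.94 and 0.17 to 0.90. The share of miR-372-3p differed between the lines and the probes. With the negative probe, leaving it out of the table totals moved the log2 ratio of miR-26a-5p from 1.65 to -0.73. Beyond that change of totals, its part in these values was not tested.

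**Figure D4:**
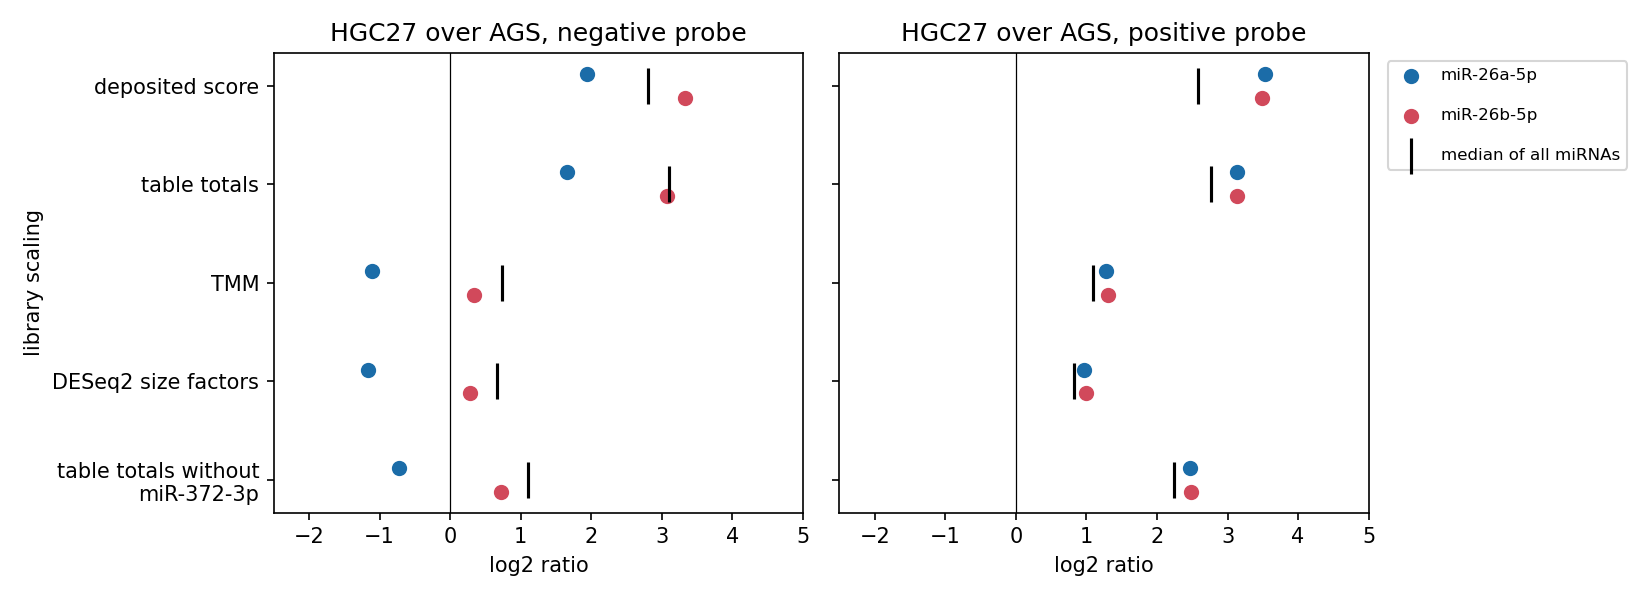
Log2 ratio of HGC27 over AGS for miR-26a-5p and miR-26b-5p (points) and the median over miRNAs that reached 10 counts in either library (black ticks) under 5 scalings of the libraries, with the negative probe on the left and the positive probe on the right. With the negative probe miR-26a-5p changes sign between scalings, from 1.93 to -1.17, but lies to the left of the median in each. A scaling shifts the points and the median alike, so their order is not checked 5 times.

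Over all 4 libraries with the probe as covariate, the log2 fold change of HGC27 against AGS was -0.15 ± 1.42 (SE) for miR-26a-5p (edgeR quasi-likelihood test, adjusted p = 0.934) and 0.59 ± 1.10 for miR-26b-5p (adjusted p = 0.716). Again 0 of the 2 members were called, against 29.9% of the 271 miRNAs tested. With library totals in place of TMM, the log2 fold changes were 2.40 and 3.14, and miR-26b-5p was called (adjusted p = 0.0116 in edgeR), as were 169 of the 271 miRNAs. Over the other settings the adjusted p ran from 0.0530 to 0.969 for miR-26a-5p and from 0.0116 to 0.922 for miR-26b-5p. The line effect of miR-26a-5p was -1.10 with the negative probe alone and 1.28 with the positive probe alone. The value of -0.15 thus averaged opposite signs, and the misses do not show that the lines had the family at the same level.

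The miRNAs with the most similar pattern were sought among the other 189 known miRNAs that summed to at least 100 counts, by the Euclidean distance of the log2 scores over the 4 libraries after each profile was centred on its mean. For miR-26a-5p these were miR-181b-5p (distance 0.48), miR-574-3p (0.68), let-7d-3p (0.68), miR-191-5p (0.77) and miR-30c-5p (0.86). For miR-26b-5p they were let-7d-3p (0.45), miR-181b-5p (0.54), miR-374b-5p (0.64), miR-101-3p (0.65) and miR-744-5p (0.72). miR-181b-5p and let-7d-3p appeared for both members. The distance between the members themselves was 1.01, which placed miR-26b-5p at position 7 for miR-26a-5p and miR-26a-5p at position 11 for miR-26b-5p. The profiles hold 4 points that share libraries, and low scores such as the 0 and 5 of miR-574-3p in AGS are coarse. As an example, miR-181b-5p had scores of 118 and 67 in HGC27 and of 19 and 5 in AGS.

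miR-26 is among the miRNAs that MYC represses, and 16 others of this kind were followed. Of these, 15 were in the table and 14 had at least 10 counts summed over the libraries. In HGC27, 5 of the 14 were enriched (ratio of at least 2) and 5 depleted, where 27.4% and 30.0% of all 453 miRNAs with as many counts were. In AGS, 6 were enriched and 6 depleted, against 28.9% and 21.0% of all. Some of these AGS calls sat near the floor. miR-29b-3p, miR-29c-3p and miR-30e-5p, called depleted, had scores of 3, 1 and 3 with the negative probe. With the positive probe they had 1, 0 and 1. miR-146a-5p, called enriched, had scores of 0 and 1. The median log2 ratio of the list was -0.67 in HGC27 and 0.00 in AGS, and that of all miRNAs was 0.00 in both. Counts were summed over all libraries, so miRNAs could enter through HGC27 alone. The AGS median of the list fell on miR-15a-5p and miR-195-5p, whose score was 0 in both AGS libraries. Among the 230 miRNAs with at least 10 counts in an AGS library, the median was 0.42 and 31.3% were depleted. Restricted to members of the list with at least 100 counts summed, the list median was 1.27 in HGC27 and 2.91 in AGS. That filter kept fewer miRNAs, with every let-7 member of the list among them, and both medians fell between let-7 values. The median of all miRNAs at that filter is not given, so these values are not read as enrichment of the list.

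The members of the list lay on both sides of 0. The let-7 members, which restrain growth factor signaling, were at the upper end. let-7f-5p had scores of 11546 and 47547 with the negative and positive probe in HGC27 and of 1394 and 31743 in AGS, which gave log2 ratios of 2.04 and 4.51. let-7a-5p had 11304 and 42312 in HGC27 and 272 and 11270 in AGS, the latter a log2 ratio of 5.37. In HGC27, miR-26a-5p (log2 ratio -0.63) was close to the list median of -0.67, and miR-26b-5p was at -1.17. In AGS they were at -2.22 and -1.32, below the list median of 0.00. At the lower end of the list stood miR-16-5p, a regulator of cyclins and BCL2. It had 414 and 66 counts in HGC27 (log2 ratio -2.52) and 109 and 2 in AGS, a fold of 0.00369 to 0.114 by its exact 95% interval. miR-29a-3p, which targets matrix genes such as collagens, had scores of 347 and 90 in HGC27 and of 135 and 35 in AGS, with log2 ratios of -1.94 and -1.92. miR-30c-5p had scores of 371 and 220 in HGC27 and of 51 and 10 in AGS, with log2 ratios of -0.75 and -2.24. The let-7 members were named in earlier results of these libraries, so their place in the list is not independent evidence.

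**Figure D5:**
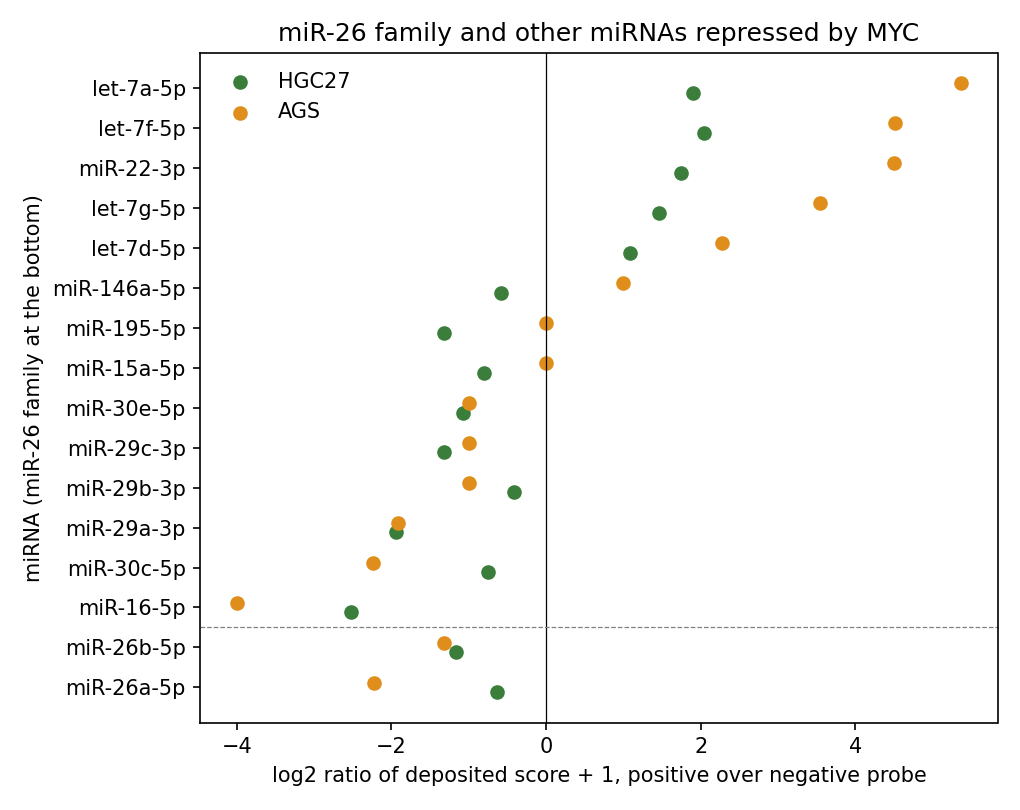
Log2 ratio of the positive over the negative probe in HGC27 (green) and AGS (orange) for the miR-26 family, below the dashed line, and for the 14 other MYC-repressed miRNAs that reached 10 counts in sum. The let-7 members and miR-22-3p lie above 0 in both lines, and miR-16-5p, the miR-29 and miR-30 members and the miR-26 family lie below 0 in both. In AGS, miR-29b-3p, miR-29c-3p and miR-30e-5p had scores of at most 3, so their points are coarse.

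Of 5 other miRNAs known to target EZH2, 4 were in the table. miR-101-3p, the only one with at least 100 counts summed, had scores of 188 and 111 with the negative and positive probe in HGC27 and of 16 and 11 in AGS, with log2 ratios of -0.75 and -0.50. In HGC27, 2 of the 4 were depleted and 1 was enriched, against 30.0% and 27.4% of all 453 miRNAs, with a median log2 ratio of -0.96 against 0.00. The miRNAs called there had HGC27 scores of 2 to 24, so these calls are coarse. In AGS, 0 of the 4 passed either threshold, against 21.0% depleted and 28.9% enriched of all, and both medians were 0.00, but 3 of them had a score of 0 in both AGS libraries.

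Finally, the FN1 3′-UTR was searched for the letters that pair with the family seed. In the annotated transcript it spans 1101 bases of the minus strand of chromosome 2, between positions 215360454 and 215361554 (GRCh38). TACTTGA, the match to nucleotides 2 to 8, occurred 0 times on the transcript strand, and TCAAGTA, its counterpart on the other strand, occurred 0 times. The first 1101 bases of the 3′-UTRs of 9571 other genes held TACTTGA in 7.94% and TCAAGTA in 5.68%. Among the 478 distinct seeds of the known miRNAs in the table, 7.53% had a match in the FN1 3′-UTR. The shorter ACTTGA, which lies within TACTTGA and pairs with nucleotides 2 to 7, occurred 1 time on the transcript strand and 0 times on the other. These counts describe letters in 1 window and show neither a site nor its absence, because miRNAs also bind without a full seed match.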

How the data were processed

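Small RNA sequencing was performed on pull-down material of 4 libraries, 1 per group, and groups were taken from the sample titles. For each mature miRNA, the authors deposited a raw tag count, with 1 row per pair of miRNA and precursor (901 rows). A miRNA with several precursors had the same count in each row and was counted once, and a blank was taken as 0. A score was deposited too, in tags per 1000000, as whole numbers. The divisors that return this score from the counts exceed the totals of the table, which were 35.7% to 50.0% of them. The reason is not given in the sources used here. The submitters' processing notes name cutadapt 1.9.3, Novoalign 3.02.12 and hg38.

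Ratios used the deposited score + 1 (pseudocount 1), with exact binomial intervals of the counts over the divisors. Background shares used miRNAs with at least 10 counts in either library compared. Compositions were compared by Fisher's exact test on raw counts (scipy 1.17.1) with Benjamini-Hochberg adjustment. All raw counts were fitted in edgeR 4.0.16 (R 4.3.3) with TMM, filterByExpr and the other factor as covariate, and tested by the quasi-likelihood test with Benjamini-Hochberg adjustment over all 271 miRNAs, at a threshold of 0.05. The fit was tested on simulated data. The SE given with an edgeR log2 fold change is approximate, as its absolute value divided by the square root of the F statistic. DESeq2 1.42.0 served as an alternative. Sequences and positions were from RefSeq and GENCODE (GRCh38). Named miRNAs were the members, the 5 nearest profiles of each, the 2 highest and 2 lowest of each list per line with at least 100 counts, and miR-372-3p. miR-22-3p and the members of the MYC list with low scores in AGS were named after their values were seen. Members and lists were chosen with earlier results of these data known.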

Additional observations from a re-analysis of the deposited data

Results flagged for a closer look

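The balance of the members moved in opposite directions in the lines. The odds of miR-26a-5p against miR-26b-5p were 1.45 times as high with the positive as with the negative probe in HGC27, and 0.550 times as high in AGS. The counting intervals lay on opposite sides of 1, but with 1 library per group the difference between the lines was not tested, and the AGS value rests on 40 counts of miR-26b-5p with the positive probe.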

How the results depend on the processing

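The probe ratios of both members stayed below 0 on the log2 scale under each scaling and pseudocount tried. With precursor rows summed, the odds ratios of family composition were 1.45 for the HGC27 probes and 0.550 for the AGS probes. Between the lines they were 0.367 with the negative and 0.970 with the positive probe. All 4 comparisons kept their side of the threshold. The precursor rows of miR-26a-5p hold equal counts, so summing multiplies it alike in every library and leaves the odds ratios in place. The scores gave 1.46, 0.569, 0.365 and 0.938 in the same order, but they are counts over 1 divisor per library, rounded. Neither setting is a separate check of the composition. There were 0 predicted entries to add to a member, so that alternative gave no value. The causes of the changes below were not tested.

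For the summed family, table totals gave log2 probe ratios of -0.57 in HGC27 and -1.99 in AGS, and line ratios of 1.71 with the negative and 3.14 with the positive probe. TMM gave -0.59, -2.92, -1.04 and 1.28 in the same order, DESeq2 size factors -0.47, -2.55, -1.11 and 0.97, and totals without miR-372-3p -0.57, -3.70, -0.67 and 2.46. The line ratio with the negative probe thus changed sign under 3 of 4 other scalings, as it did for miR-26a-5p alone (-1.10, -1.17 and -0.73).

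The median of the MYC list was 1.27 in HGC27 and 2.91 in AGS with at least 100 counts summed, which keeps fewer miRNAs. Every let-7 member of the list passed that filter, and both medians fell between let-7 values. With at least 10 counts summed, the AGS median of the list was -1.19 with TMM, -0.91 with DESeq2 size factors and -1.84 without miR-372-3p. The EZH2 list in AGS had -0.63, -0.46 and -1.02 under these settings, and -0.50 with at least 100 counts summed, where 1 miRNA was left. These scalings also moved the median of the 230 miRNAs with at least 10 counts in an AGS library, to -0.18, 0.18 and -0.95. That background was filtered otherwise than the lists, so the distance of the lists from it is not given.

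The probe test called 19 of 271 miRNAs in edgeR. It called 32 with DESeq2 size factors and 38 in DESeq2. It called 0 with library totals only, 0 when unfiltered, 0 when each library had to reach 10 counts and 0 without the covariate, where 52, 66, 16 and 17 had an unadjusted p under 0.05. The line test called 81 in edgeR, 169 with library totals only, 0 when unfiltered (95 at an unadjusted p under 0.05) and 15 when each library had to reach 10 counts. For miR-26a-5p, the line effect turned positive with library totals only (2.40), unfiltered (0.0871) and when each library had to reach 10 counts (0.24). Leaving out a probe gave values from -1.10 to 1.28, with no test. One setting, TMM on a table that omits miR-372-3p, was added after seeing the data, and called 16 and 58 miRNAs. No paired analysis was possible because a group is a single library and the sample titles carry no replicate number; the line or probe covariate is the sole matching.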
